A study of Mus musculus with 15 samples.

Results

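The genes described here encode costimulatory and checkpoint ligands, the surface proteins with which a macrophage raises or restrains a T cell that it meets. Genes were taken by symbol from a list of 9 (Cd40, Cd80, Cd86, Cd83, Cd274, Pdcd1lg2, Icosl, Slamf7 and Havcr2), and 8 of them were found among the 561 genes of the panel. Havcr2, which encodes TIM-3, is not analysed here. Of the 8, 7 passed the filter on low counts (an average of 20 counts or more over all samples), and Pdcd1lg2, with at most 11 counts in any sample, did not.

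RNA was quantified on the Mouse Immunology panel of the nanoString nCounter, which counts mRNA molecules with gene-specific barcoded probes, in RAW 264.7 macrophages, a mouse macrophage cell line. All cells received lipopolysaccharide (LPS), a bacterial cell wall component that activates macrophages, together with plasma extracellular vesicles (EVs) for 24 hours. The EVs came from female C57BL/6J mice, 6 to 8 weeks old, that had been sham-treated or had undergone whole-body irradiation (WBIR) with a dose of 2 Gy or 9 Gy, in which case they were isolated 3 or 7 days later. This gave 5 groups of 3 samples. All groups thus carried LPS and EVs, only the EV donors were irradiated, and the comparisons ask whether the dose and the time after WBIR alter how the EVs affect the macrophages. The labels do not say whether the 3 samples of a group were separate cultures or EV preparations, so the p-values measure the spread between these samples, which may be technical.

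A T cell needs a costimulatory signal beside the antigen that it recognizes. CD80 and CD86, the B7 ligands, bind CD28, which stimulates, and CTLA-4, which inhibits, while ICOSL binds the costimulatory receptor ICOS. PD-L1 (Cd274) and PD-L2 (Pdcd1lg2) bind PD-1 and restrain the T cell. CD40 is the macrophage's own receptor for CD40L on T cells and signals to NF-κB, CD83 is a maturation marker of antigen-presenting cells, and SLAMF7 is a self-binding receptor of the SLAM family. LPS is known to induce several of these genes in macrophages through NF-κB and interferons.

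Total counts per sample were 453178 to 837995 in 4 of the groups and 43176 to 87899 in the 9 Gy day 3 group, so single values of that group rest on few counts. The day label of 2 samples in that group reads 7 although their titles place them at day 3. Levels are given as normalized counts, which are raw counts scaled to the geometric mean of the 14 housekeeping genes of the panel. All 6 measured macrophage markers (Itgam, Csf1r, Cd14, Fcgr1, Emr1 and Tlr4) had at least 20 raw counts in every sample of every group but 9 Gy day 3. Their summed level was 4798 to 7870 normalized counts in the sham group, 2184 to 3601 in the 9 Gy day 3 group and 2142 to 3311 in the 9 Gy day 7 group, and Itgam, Cd14, Fcgr1 and Emr1 fell and Csf1r rose at each 9 Gy day, where under total counts Csf1r was still called higher and of the other 4 Itgam alone was called lower, at day 3. The summed level of 6 T cell markers was 129 to 163 in the sham group, 73.0 to 116 in the 9 Gy day 3 group and 68.6 to 94.8 in the 9 Gy day 7 group, with every marker but Cd8a under 20 raw counts in all samples. Cd8a, named after its values were seen, fell by 0.89 and 0.82 on the log2 scale, and under total counts its sign turned (0.12 and 0.27). All 4 dendritic cell markers were under 20 raw counts in the sham group. The part of these shifts in the ligand results was not tested, and fewer cells and less RNA per cell cannot be told apart in bulk samples.

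The promoters of 2 ligand genes that fell with 9 Gy EVs (Cd80 and Cd274) and of 2 that did not pass the test (Icosl and Slamf7) are printed, as 250 bases upstream of the start site. Sequences were matched by symbol in RefSeq (GRCm38.p6) for these and Pdcd1lg2, 5 of the 8 genes, and not for Cd86, Cd83 and Cd40, and 4 are shown 5′ to 3′ on the strand of the gene: Cd80 at chr16:38458683-38458932 on the plus strand, Cd274 at chr19:29367188-29367437 on the plus strand, Icosl at chr10:78069118-78069367 on the plus strand and Slamf7 at chr1:171649000-171649249 on the minus strand. Capitals mark matches on either strand to NF-κB-like letters (GGG and CC with 5 or 4 bases of any kind between them), to interferon-response letters (TTTC and TTTC with 2 bases between), to STAT letters (TTC and GAA with 3 bases between) or to the AP-1 letters TGANTCA.
Cd80: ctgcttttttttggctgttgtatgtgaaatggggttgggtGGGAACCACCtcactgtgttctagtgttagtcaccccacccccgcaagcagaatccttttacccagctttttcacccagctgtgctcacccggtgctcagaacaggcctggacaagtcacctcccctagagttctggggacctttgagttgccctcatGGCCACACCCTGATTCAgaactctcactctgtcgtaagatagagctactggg
Cd274: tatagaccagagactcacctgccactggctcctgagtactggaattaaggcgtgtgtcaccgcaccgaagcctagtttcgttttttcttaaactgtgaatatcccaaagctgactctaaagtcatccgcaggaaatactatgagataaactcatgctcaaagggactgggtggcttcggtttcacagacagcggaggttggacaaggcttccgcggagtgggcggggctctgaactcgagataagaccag
Icosl: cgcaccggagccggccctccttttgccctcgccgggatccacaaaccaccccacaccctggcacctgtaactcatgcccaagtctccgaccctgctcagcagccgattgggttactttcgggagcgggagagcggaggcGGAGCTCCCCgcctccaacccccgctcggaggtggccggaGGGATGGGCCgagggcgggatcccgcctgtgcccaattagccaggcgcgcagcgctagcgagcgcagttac
Slamf7: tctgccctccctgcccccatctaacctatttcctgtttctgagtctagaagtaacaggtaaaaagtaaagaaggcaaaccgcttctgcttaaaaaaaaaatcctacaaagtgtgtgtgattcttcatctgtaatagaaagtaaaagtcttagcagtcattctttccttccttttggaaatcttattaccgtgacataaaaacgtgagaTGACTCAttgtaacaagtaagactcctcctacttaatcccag

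The Cd80 window held the NF-κB-like letters with the longer spacer at 2 places, of which the nearer one to the start was followed directly by TGATTCA. Icosl also held them at 2 places, the first of which overlapped a match with the shorter spacer. Slamf7 held TGACTCA, at 36 to 42 bases upstream of the start, the same distance as the AP-1 letters of Cd80. The Cd274 window held none of the 5 motifs, and that of Pdcd1lg2, not printed since its counts were too low to test, held the NF-κB-like letters with both spacers. Among 32851 promoter windows of the same length, 45.8% held the NF-κB-like letters with the longer spacer, 38.7% those with the shorter one, 2.98% the interferon-response letters, 7.02% the STAT letters and 6.75% the AP-1 letters. The matches are descriptions of these letters, and both Cd80, which fell with 9 Gy EVs, and Icosl, which did not, carried the NF-κB-like letters.

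With EVs from 9 Gy mice, RAW 264.7 macrophages had less mRNA of both B7 ligands, PD-L1, CD83 and CD40 than in the sham group, by 2.31-fold (Cd83, day 3) to 5.76-fold (Cd86, day 7) with the housekeeping scaling, leaving aside Cd80 at day 3, whose raw counts of 2 to 4 give no exact fold. With total counts the differences were smaller, with Cd86 at -1.43 on the log2 scale at both days and Cd80 at -1.57 and -0.94. Neither Cd83 nor Cd40 was then called at either day, and Cd274 was not called at day 7. Of the 7 genes tested, 5 fell in the 9 Gy day 3 group and none rose (edgeR, adjusted p under 0.05), where 52.4% of all 269 tested genes were called and 41.3% were called lower. With 9 Gy day 7 EVs the count was again 5 lower and 0 higher of 7, with 61% of all genes called and 49.1% lower. No gene of the group was called with EVs from 2 Gy mice at day 3, where 0% of all genes passed (2.6% at an unadjusted p under 0.05), or at day 7, where 0% passed as well (0.372% unadjusted). Over the 7 genes the median log2 fold change was -1.41 at 9 Gy day 3 and -1.29 at 9 Gy day 7, against medians of -0.46 and -0.45 over all tested genes. The 6 macrophage markers had medians of -1.26 and -1.29, near those of the ligand genes, with 4 called lower and 1 higher at each day. All 3 samples lay below all sham samples in 6 of the 7 genes at day 3 and in 5 at day 7, a separation found in 43.9% and 49.1% of the tested genes. Since so many genes of the panel passed at 9 Gy, a count of 5 of 7 is not far from the panel's own share, and both 9 Gy comparisons use the same sham samples. With the conflicting day labels moved or left out, replicate 3 alone remained at 9 Gy day 3, so no count of calls is given. The median over all tested genes was then -0.50 and -0.51.

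Cd86 encodes the B7 ligand that unstimulated antigen-presenting cells already carry. Its normalized counts were 325, 219 and 344 in the sham group, 259, 293 and 296 in the 2 Gy day 3 group, and 346, 241 and 206 in the 2 Gy day 7 group. They were 51.0, 59.0 and 52.7 in the 9 Gy day 3 group and 47.7, 54.1 and 52.0 in the 9 Gy day 7 group. Every 9 Gy sample lay below every sham and 2 Gy sample, and the 6 samples of 9 Gy lay within a narrow range. The log2 fold change against sham EVs, given throughout with its standard error (SE) and the adjusted p from edgeR, was -2.44 (SE 0.26, adjusted p = 4.6e-06) at 9 Gy day 3 and -2.53 (SE 0.21, adjusted p = 4.2e-07) at day 7, or 5.43-fold and 5.76-fold lower. The day 3 values rest on raw counts of 7, 12 and 13, all under 20, so the day 3 fold is not exact. The day 7 values rest on 79 to 90.

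Cd80 encodes the other B7 ligand, which is induced on activation. It was at 75.4, 99.2 and 74.0 normalized counts in the sham group, 46.1, 52.7 and 67.9 in the 2 Gy day 3 group and 67.2, 85.7 and 96.9 in the 2 Gy day 7 group. With 9 Gy EVs it was at 14.6, 19.7 and 8.11 (day 3) and 13.9, 25.2 and 21.4 (day 7), again below every other sample. The log2 fold changes against sham EVs were -2.59 (SE 0.40, adjusted p = 0.00011) at 9 Gy day 3 and -2.04 (SE 0.24, adjusted p = 1.1e-05) at day 7. Raw counts at 9 Gy day 3 were 2, 4 and 2, and with all counts under 20 set to 20 the day 3 log2 fold change became 0.01. The day 7 samples had 23 to 40 raw counts. All 3 samples in the 2 Gy day 3 group lay below all sham samples, with a log2 fold change of -0.57 (SE 0.23) and an unadjusted p of 0.026 that did not pass the adjustment (adjusted p = 0.998). All samples were below in 8.18% of the tested genes in that comparison.

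Cd274, which encodes PD-L1, varied little between the replicates of the sham and 2 Gy groups. Its normalized counts were 584, 559 and 604 in the sham group, 175, 211 and 264 in the 9 Gy day 3 group and 210, 240 and 266 in the 9 Gy day 7 group. Every 9 Gy sample lay below the lowest sham or 2 Gy sample, with log2 fold changes of -1.41 (SE 0.15, adjusted p = 5.1e-06) and -1.29 (SE 0.14, adjusted p = 4.6e-06), or 2.65-fold and 2.44-fold lower. With total counts they were -0.40 and -0.19, and the day 7 call was lost. With 2 Gy EVs it was at 460, 514 and 512 (day 3) and 524, 529 and 539 (day 7), in both groups below the lowest sham sample. These differences, -0.23 and -0.14 on the log2 scale (SE 0.14 each), did not pass the test (adjusted p = 0.998 and 0.944). At 2 Gy day 7, 1.49% of the tested genes had all 3 samples below all sham samples.

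Pdcd1lg2, which encodes the second PD-1 ligand, had counts near the panel's lowest. Raw counts were 10, 6 and 8 in the sham group, 3, 7 and 6 in the 2 Gy day 3 group, 9, 9 and 8 in the 2 Gy day 7 group, 1, 1 and 2 in the 9 Gy day 3 group and 4, 2 and 11 in the 9 Gy day 7 group. Scaled to the housekeeping genes, the 9 Gy day 3 samples (4.92 to 8.11) overlapped the sham samples (5.67 to 11.1), and the gene was too low to be tested under the filter. Without the filter on low counts the log2 fold change at 9 Gy day 7 was -1.18 (SE 0.42, adjusted p = 0.031 over 561 genes), and the comparisons of the other irradiated groups with sham EVs did not pass. The 9 Gy day 7 samples, at 1.26 to 6.36 normalized counts, overlapped the sham samples as well.

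Cd40, the receptor through which T cells license macrophages, varied widely within groups. It was at 542, 865 and 335 normalized counts in the sham group, 212, 512 and 609 in the 2 Gy day 3 group and 348, 895 and 922 in the 2 Gy day 7 group. With 9 Gy EVs it was at 189, 216 and 182 (day 3) and 184, 224 and 268 (day 7). The 9 Gy samples lay below all sham samples, but the lowest 2 Gy sample, at 212, lay within the 9 Gy range. Against sham EVs the log2 fold changes were -1.57 (SE 0.47, adjusted p = 0.013) and -1.37 (SE 0.42, adjusted p = 0.013). Both calls were lost when sham replicate 2, the highest sham sample, was left out (-1.16 and -0.96, adjusted p = 0.054 and 0.067), and under 3 of the 5 scalings compared further on. With the 2 samples of conflicting day labels moved to day 7 or left out, replicate 3 alone remained at 9 Gy day 3. The Cd40 estimate was then -1.67 either way.

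Cd83, the maturation marker, was at 266, 367 and 321 normalized counts in the sham group, 291, 325 and 334 in the 2 Gy day 3 group and 298, 350 and 380 in the 2 Gy day 7 group. It was at 204, 123 and 101 in the 9 Gy day 3 group and 137, 175 and 97.7 in the 9 Gy day 7 group. All 9 Gy samples lay below all others. The log2 fold changes against sham EVs were -1.20 (SE 0.26, adjusted p = 0.0019) at day 3, from 25 to 28 raw counts, and -1.22 (SE 0.23, adjusted p = 0.00051) at day 7. Neither was called under total counts (-0.17 and -0.08).

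Slamf7, the self-binding SLAM receptor, was at 272, 332 and 154 normalized counts in the sham group, 62.9, 237 and 261 in the 2 Gy day 3 group and 154, 331 and 303 in the 2 Gy day 7 group. With 9 Gy EVs it was at 116, 98.3 and 114 (day 3) and 117, 164 and 215 (day 7). The day 3 samples lay below all sham samples and the day 7 samples overlapped them. Neither difference passed the test, with log2 fold changes of -1.21 (SE 0.51, adjusted p = 0.062) and -0.61 (SE 0.44, adjusted p = 0.24). The day 3 value passed under 6 alternatives, among them DESeq2 (adjusted p = 0.042) and the fit without replicate 1 of 2 Gy day 3 (adjusted p = 0.016), the lowest Slamf7 sample.

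Icosl, the ligand of ICOS, was the one gene of the 7 whose estimates at 9 Gy lay above sham EVs. Its normalized counts were 47.7, 73.7 and 27.7 in the sham group, 40.5, 62.7 and 73.4 in the 2 Gy day 3 group and 42.7, 86.5 and 97.9 in the 2 Gy day 7 group. They were 87.3, 54.1 and 60.8 in the 9 Gy day 3 group and 68.2, 81.1 and 70.0 in the 9 Gy day 7 group. All groups overlapped the sham samples, and the log2 fold changes at 9 Gy, 0.40 (SE 0.44, adjusted p = 0.46) and 0.56 (SE 0.34, adjusted p = 0.17), did not pass the test. They moved with single sham samples, to 0.81 and 0.97 without replicate 2, the highest, the latter past the threshold (adjusted p = 0.032), and to 0.10 and 0.26 without replicate 3, the lowest.

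**Figure D1:**
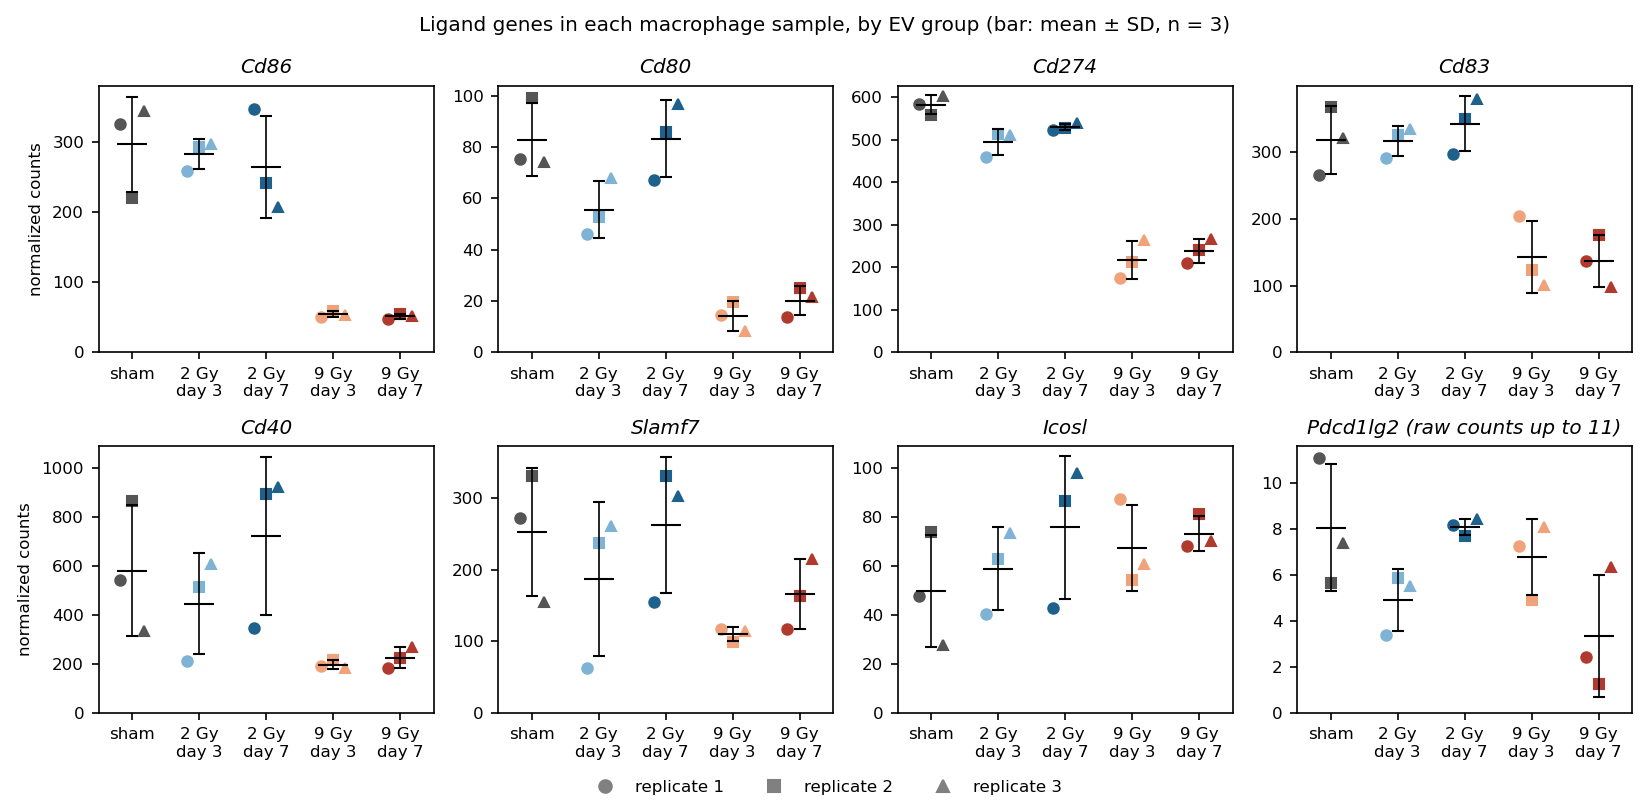
Normalized counts (vertical axis, linear, from 0) of the 8 measured ligand genes in each sample of the 5 EV groups (horizontal axis), with marker shapes for replicates 1 to 3 and bars for the mean and SD of 3 samples. Cd86, Cd80, Cd274 and Cd83 show all 9 Gy samples below all sham and 2 Gy samples, Cd40 and Slamf7 show wide spreads with sham and 2 Gy EVs, and Icosl overlaps between all groups.

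**Figure D2:**
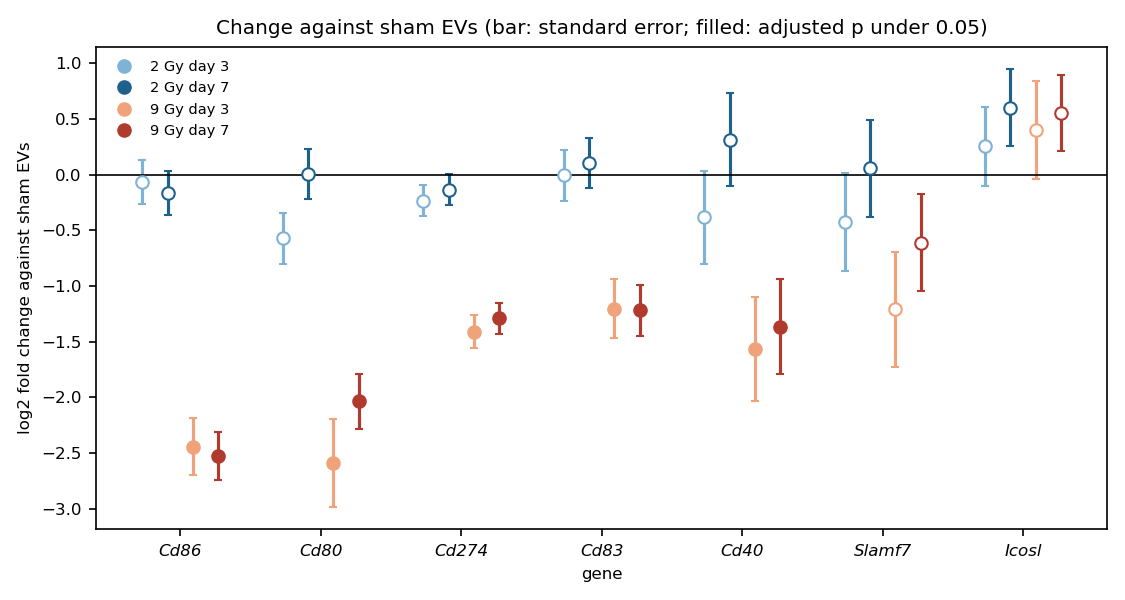
Log2 fold change against sham EVs (vertical axis, with standard error) of the 7 tested genes in the 4 irradiated groups, filled where the adjusted p from edgeR was under 0.05. The 10 filled points are the 5 genes from Cd86 to Cd40 in both 9 Gy groups, and no 2 Gy point is filled.

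The dose comparison, both 9 Gy groups against both 2 Gy groups (6 samples each), needs no sham samples. Its fit takes the 6 samples of a dose as independent, although same-numbered samples of a dose deviated together between days. Its standard errors and p-values may thus be too small. Cd86, Cd80, Cd274, Cd83 and Cd40 were lower with 9 Gy EVs, which made 5 of 7 where 67.7% of all genes were called and 52% were called lower. The log2 fold changes were -2.37 (SE 0.17, adjusted p = 2.9e-08) for Cd86, -2.03 (SE 0.23, adjusted p = 3.7e-06) for Cd80 and -1.16 (SE 0.10, adjusted p = 2.7e-07) for Cd274. Cd83 was at -1.26 (SE 0.18, adjusted p = 2.5e-05) and Cd40 at -1.43 (SE 0.32, adjusted p = 0.0013). In Cd86, Cd80, Cd274 and Cd83 all 6 samples of 9 Gy lay below all 6 of 2 Gy, a separation that 36.1% of the tested genes showed in that direction. Slamf7, at -0.73 (SE 0.34, adjusted p = 0.071), and Icosl, at 0.05 (SE 0.27, adjusted p = 0.88), did not pass. Slamf7 passed with counts under 20 set to 20 (adjusted p = 0.041) and without replicate 1 of 2 Gy day 3 (-0.93, adjusted p = 0.0061), replicate 1 of 2 Gy day 7 (adjusted p = 0.037) or replicate 3 of 9 Gy day 7 (adjusted p = 0.0496). With total counts Icosl was called higher (1.19, adjusted p = 0.00098), and Cd274, Cd83 and Cd40 were not called (-0.04, -0.10 and -0.28).

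The size of these changes depended on how samples were scaled to each other. At 9 Gy day 7 the geometric mean of the housekeeping genes was 801 to 872 raw counts against 454 to 545 in the sham group, while total counts were 453178 to 617963 against 568097 to 729491, and which of these scales is right was not tested. Scaled to the 14 housekeeping genes, the median log2 fold change of all 269 tested genes was -0.46 at 9 Gy day 3 and -0.45 at day 7. It was 0.01 and 0.03 with TMM scaling, which takes most genes as unchanged, and 0.56 and 0.65 with total counts. Called genes of the panel split into 111 lower and 30 higher at day 3 with the housekeeping genes, 60 and 59 with TMM and 33 and 121 with total counts. At day 7 these splits were 132 and 32, 76 and 75, and 31 and 143.

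Relative to the median gene, Cd86 lay at -1.98 (day 3) and -2.08 (day 7) on the log2 scale, Cd80 at -2.13 and -1.59, Cd40 at -1.11 and -0.92, Cd274 at -0.95 and -0.84, and Cd83 at -0.75 and -0.77. Slamf7 lay at -0.75 and -0.16 and Icosl at 0.85 and 1.00. Cd86 and Cd80 were called lower at both days under all 5 scalings. Cd40 was not called under the median, TMM or total count scalings, and Cd83 was not called under total counts. Cd274 was called under every scaling at day 3 and under all but total counts at day 7 (adjusted p = 0.19). Icosl was called higher at day 7 under TMM (1.04, adjusted p = 0.014), under the median scaling (1.04) and under total counts (1.68), and at day 3 under total counts alone (1.42, adjusted p = 0.012). The numbers of ligand genes called lower and higher at day 7 were thus 5 and 0 with the housekeeping genes, 4 and 1 with TMM and 2 and 1 with total counts.

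**Figure D3:**
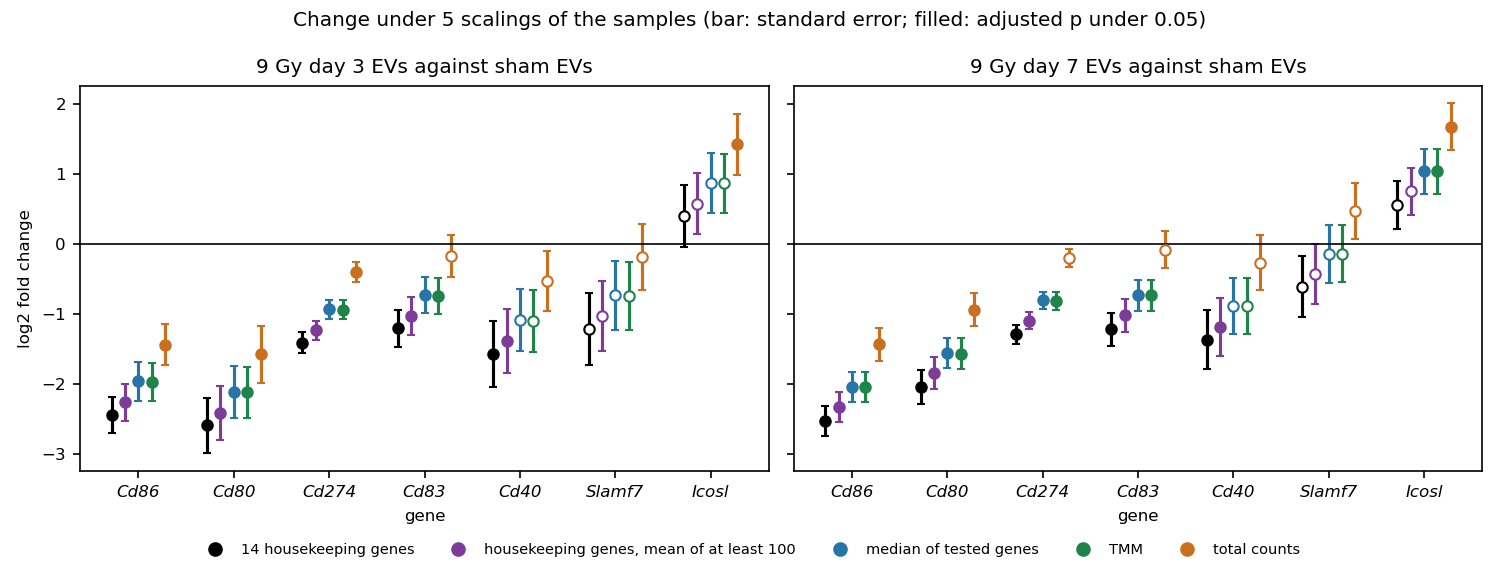
Log2 fold change (vertical axis, with standard error) of the 7 tested genes with 9 Gy EVs against sham EVs at day 3 (left) and day 7 (right) under 5 scalings of the samples, filled where the adjusted p was under 0.05. Cd86 and Cd80 stay below 0 and filled throughout, while total counts shift every gene up, leave Cd83, Cd40 and Slamf7 open at both days and Cd274 at day 7, and fill Icosl above 0.

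A ratio of 2 genes within a sample does not depend on the scaling, and 4 pairs were compared between the 6 samples of 9 Gy and the 6 of 2 Gy by exact two-sided permutation tests, whose smallest possible p is 0.0022. The log2 ratio of raw Cd274 to raw Cd86 counts was 0.79 to 0.83 in the 2 Gy day 3 group, 0.60 to 1.39 in the 2 Gy day 7 group, 1.78 to 2.32 in the 9 Gy day 3 group, 2.14 to 2.35 in the 9 Gy day 7 group and 0.81 to 1.35 in the sham group. All 9 Gy samples lay above all others, so Cd86, the ligand of CD28, had fallen further than Cd274, the ligand of PD-1. The mean was 2.10 ± 0.24 (SD, n = 6) with 9 Gy EVs and 0.93 ± 0.28 (SD, n = 6) with 2 Gy EVs, a 2.25-fold higher ratio (exact permutation p = 0.0022, adjusted p = 0.0087 over the 4 pairs). This test takes the 6 samples of a dose as independent, although same-numbered samples of the 2 days deviated together. With each such pair averaged, 3 values a dose gave the smallest p possible, 0.1. In the day 7 samples alone, where no Cd86 count was under 79, the difference was 1.17 as well, with 3 samples a group that cannot reach an exact p below 0.1. With counts under 20 set to 20, which raises Cd86 at 9 Gy day 3, the difference was 0.69 and did not pass (adjusted p = 0.10).

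The ratio of Cd40 to Cd86 was 1.79 to 1.89 and 1.95 to 2.36 in the 9 Gy groups at days 3 and 7, and ranged from -0.28 to 2.16 with 2 Gy EVs. The 2 doses overlapped, and the difference of 1.05 did not pass after adjustment (exact permutation p = 0.041, adjusted p = 0.082). Cd86 to Cd80 was 1.71 ± 0.56 (SD, n = 6) with 9 Gy EVs and 2.01 ± 0.58 (SD, n = 6) with 2 Gy EVs (exact permutation p = 0.38, adjusted p = 0.38), so no difference between the B7 ligands was detectable. Cd274 to Pdcd1lg2 was 5.74 ± 1.09 and 6.36 ± 0.42 (SD, n = 6 each; exact permutation p = 0.21, adjusted p = 0.28), with at most 11 counts of Pdcd1lg2 behind each value.

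Another pair, Icosl to Cd86, was looked at after the values were seen and is given without a test. Its log2 ratio was -3.63 to -1.57 in the sham group, -2.68 to -2.01 in the 2 Gy day 3 group and -3.02 to -1.08 in the 2 Gy day 7 group, and -0.13 to 0.78 and 0.43 to 0.58 in the 9 Gy groups at days 3 and 7. The 9 Gy samples lay above all others, but this pair shares Cd86 with Cd274 to Cd86, so the ratios are not separate results. How many gene pairs of the panel separate in this way was not counted.

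**Figure D4:**
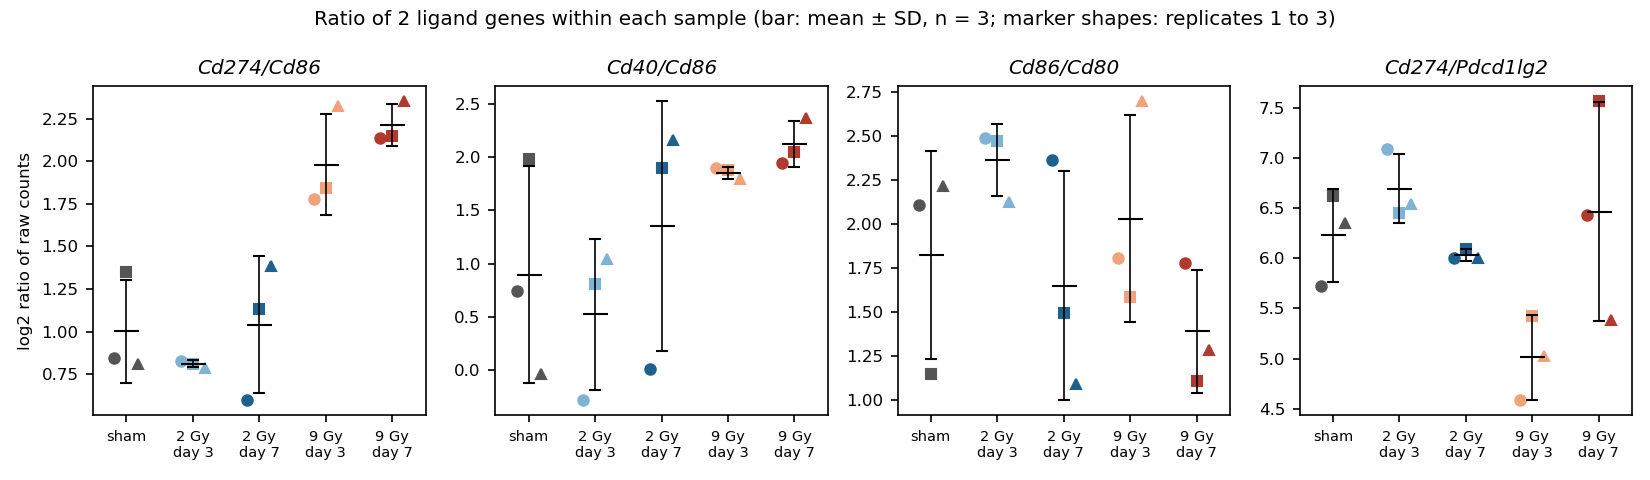
Log2 ratio of raw counts of 2 ligand genes within each sample (vertical axis, own scale for each pair) by EV group, with marker shapes for replicates 1 to 3 and bars for the mean and SD of 3 samples. The Cd274/Cd86 ratio is above 1.7 in all 9 Gy samples and below 1.4 in all others, and in the other 3 pairs the 9 Gy samples overlap the 2 Gy samples once the days of each dose are pooled.

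The time after WBIR was compared within each dose. Between 9 Gy day 7 and day 3 EVs no ligand gene was called, where 0% of all genes passed (2.23% at an unadjusted p under 0.05). Slamf7 was 0.60 higher on the log2 scale at day 7 (SE 0.51), with all 3 samples above those of day 3, as in 2.6% of the tested genes, and did not pass (adjusted p = 0.986). The test of whether the dose difference changed between days called 0 of the 7 genes and 0% of all genes, with 1.49% at an unadjusted p under 0.05.

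Between 2 Gy day 7 and day 3 EVs the fit of all groups called no gene, ligand or other (0%, and 1.49% at an unadjusted p under 0.05). Cd274 had all day 7 samples above all day 3 samples, as 4.09% of the tested genes did, with a log2 fold change of 0.10 (SE 0.14, adjusted p = 0.998). Samples of the same replicate number deviated together in these groups, with correlations of 0.39 to 0.78 across genes, and the numbers were taken to pair them. Samples of different numbers correlated up to 0.62 between these groups and up to 0.79 between the sham and 2 Gy day 7 groups. The pairing was read from the same genes that were then tested, so the p-values below are not independent of it. In a fit of these 2 groups with the replicate number as a block, a choice made with the values in view, Cd40 rose by 0.70 on the log2 scale from day 3 to day 7 (SE 0.08, adjusted p = 0.00058) and Cd80 by 0.59 (SE 0.12, adjusted p = 0.015). Both genes were higher in each of the 3 pairs, with Cd40 going from 212 to 348, from 512 to 895 and from 609 to 922 normalized counts and Cd80 from 46.1 to 67.2, from 52.7 to 85.7 and from 67.9 to 96.9. Of the 7 genes 2 were thus called, where 10% of all genes were called and 8.92% were called higher. Slamf7 (0.53, adjusted p = 0.061) and Icosl (0.37, adjusted p = 0.11) did not pass, and Cd86 was at -0.12 (adjusted p = 0.69). With the block in a fit of all 5 groups no ligand gene was called, and the corresponding 9 Gy fit with a block called none (0%).

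The spread between replicates differed among the ligand genes. Over the 12 samples outside 9 Gy day 3, the within-group SD of log2(normalized count + 1) was 0.74 for Slamf7, 0.68 for Cd40 and 0.52 for Icosl, which ranked these genes 13, 14 and 26 from the largest of 269. It was 0.31 for Cd80, 0.27 for Cd86, 0.26 for Cd83 and 0.10 for Cd274, with a median of 0.26 over all tested genes. Cd40, Slamf7 and Icosl were lowest in the same samples: in sham replicate 3 they deviated from their group mean by -0.69, -0.64 and -0.71. In replicate 1 of 2 Gy day 3 the deviations were -0.93, -1.31 and -0.49, and in replicate 1 of 2 Gy day 7 they were -0.92, -0.69 and -0.73. Cd80 was also lowest in these samples, by less (-0.15, -0.25 and -0.29). Cd274 lay near its group mean in all 12 samples.

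**Figure D5:**
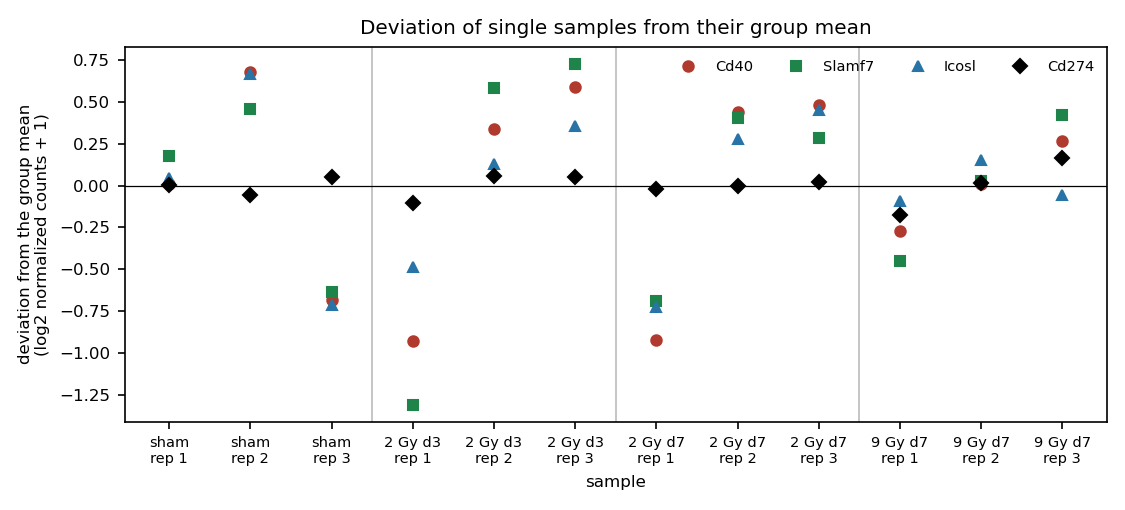
Deviation of 4 ligand genes from their group mean (vertical axis, log2 of normalized counts + 1) in the 12 samples outside 9 Gy day 3 (horizontal axis, lines between groups). Cd40, Slamf7 and Icosl lie low together in sham replicate 3 and in replicate 1 of both 2 Gy groups, and Cd274 lies near 0 in every sample.

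For each tested ligand gene the gene with the most similar pattern was sought among 149 genes that averaged 100 counts or more, by the root mean square distance of centred log2 values over the 15 samples. Cd86 was nearest to Cd74 (0.23, against a median of 0.98 over all candidates), the invariant chain of MHC class II, and Cd80 to Nfkb2 (0.29, median 0.92), an NF-κB subunit. Cd274 was nearest to Fcer1g (0.15, median 0.50), a signaling chain of Fc receptors, and Cd83 to Cybb (0.24, median 0.58), a subunit of the NADPH oxidase. Cd40 and Slamf7 shared the integrin gene Itga5 as the nearest (0.23 and 0.34, medians 0.76 and 0.73), and Icosl was nearest to the kinase gene Ikbke (0.20, median 0.68). Among the ligand genes themselves, Cd274 with Cd83 (0.38), Cd40 with Slamf7 (0.40) and Cd80 with Cd86 (0.52) were the closest pairs. The last was hardly closer than Cd274 with Cd40 (0.53) or Cd40 with Cd83 (0.55). Cd86 with Icosl (1.44) was the most distant pair.

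Other genes of these pathways were taken from lists. Of 20 further ligands of antigen-presenting cells, 11 were measured and 3 tested (Icam1, Lilrb4 and Tnfrsf14). Icam1, the adhesion ligand of LFA-1 that holds T cells to antigen-presenting cells, moved opposite to Cd86. Its normalized counts were 39.0 ± 35.6 (SD, n = 3) in the sham group, from raw counts of 23, 84 and 13, and they were 451, 428 and 182 in the 9 Gy day 3 group and 435, 590 and 179 in the 9 Gy day 7 group. All 9 Gy samples lay above all sham samples, with log2 fold changes of 3.15 (SE 0.75, adjusted p = 0.0036) and 3.35 (SE 0.72, adjusted p = 0.0013), and it was called higher under all 5 scalings. Lilrb4, an inhibitory receptor gene of myeloid cells, was lower at 9 Gy day 7 (-0.45, SE 0.15, adjusted p = 0.017), but this sign turned under the median (0.04), TMM (0.03) and total count (0.65) scalings. The receptors on T cells for these ligands, 14 measured of 15 listed (among them Cd28, Ctla4, Icos, Pdcd1 and Cd40lg), had at most 25 raw counts in any sample, and none was tested.

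Of 19 genes of CD40 and NF-κB signaling, 14 were tested, of which 4 fell and 2 rose in the 9 Gy day 3 group and 6 fell and 1 rose in the 9 Gy day 7 group, with medians of -0.04 and -0.37 against -0.46 and -0.45 over all genes. Of all tested genes 52.4% and 61% were called, so the list's shares were no larger than those of the panel. With TMM scaling these counts were 2 and 5, and 2 and 4, and with total counts 1 and 8 at each day. Outside the genes named by rule, those called with the housekeeping genes were Traf1 (-0.49 and -0.58) and Traf5 (0.84 and 0.53) at both days, Rela (0.55) at day 3 and Ikbkg (-0.61) at day 7, named after their values were seen. Under total counts Traf1 turned to 0.55 and 0.52 and Ikbkg at day 7 to 0.49, and Traf5 was called higher under all 5 scalings. Nfkb2, the subunit of the pathway that CD40 uses, fell from 3699 ± 422 normalized counts (SD, n = 3) in the sham group to 750 ± 130 and 884 ± 179 (SD, n = 3 each), with log2 fold changes of -2.30 (SE 0.19, adjusted p = 4.1e-07) and -2.06 (SE 0.18, adjusted p = 6.6e-07). It was called lower under all 5 scalings. Nfkbia, an NF-κB inhibitor, was at -0.89 and -0.94 and Tnfaip3, another inhibitor, at -0.81 and -0.74, all past the threshold, but both genes had positive signs under total counts (0.11 and 0.17 for Nfkbia, 0.21 and 0.37 for Tnfaip3). Tbk1, a kinase of the interferon pathway, was at -0.11 at day 3 and -0.64 at day 7 (adjusted p = 0.036), and at 0.36 and -0.15 under TMM and 0.93 and 0.48 under total counts.

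Of 17 interferon and STAT genes that act upstream of PD-L1, 14 were tested, of which 6 fell and 2 rose at 9 Gy day 3 and 8 fell and 2 rose at day 7, with medians of -0.54 and -0.61 against -0.46 and -0.45 over all genes. These counts lie near the panel's shares of 41.3% and 49.1% lower and 52.4% and 61% called. With TMM scaling 3 fell and 3 rose at day 3 and 5 fell and 3 rose at day 7, and with total counts 0 fell and 6 rose, and 1 fell and 7 rose. Ifngr2, a chain of the interferon-γ receptor, fell, at -1.44 and -1.61 (adjusted p = 0.00020 and 2.8e-05), and under total counts its day 3 value (-0.44) did not pass. Ifnb1, the gene of interferon-β, rose by 4.25 and 3.95 (adjusted p = 0.00016 and 0.00017) and did so under all 5 scalings, from raw counts of 10 to 40 in the sham group. The other gene that rose at both days was the kinase gene Tyk2 (1.28 and 0.76), higher under all 5 scalings and named after its values were seen. Named in the same way, Ifnar1 (-0.74 and -0.85), Ifnar2 (-1.09 and -0.93), Jak1 (-0.67 and -0.77) and Stat3 (-0.43 and -0.60) fell at both days. Jak2 (-0.62) fell at day 7. Socs3, a brake on STAT signaling, was lower at day 7 (-2.39, SE 0.69, adjusted p = 0.0087) and at -1.69 (adjusted p = 0.11) at day 3, and lost the day 7 call under total counts. No gene of these lists was called with 2 Gy EVs.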

How the data were processed

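The authors deposited raw counts per gene from the nanoString nCounter Mouse Immunology panel (561 genes, 15 samples), and no control probe counts were used here. Per the paper's methods, the authors normalized counts in nSolver, with settings not given in the sources used here. The lowest count is 1, and how counts of 0 were treated is not known. The labels and the methods give different EV numbers per culture, which were not used.

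Samples were grouped by title. Each sample was divided by the geometric mean of its 14 housekeeping genes, and the 269 genes averaging 20 counts or more were tested. One quasi-likelihood model of edgeR 4.0.16 (R 4.3.3, prior count 0.125) was fitted to all 5 groups, with Benjamini-Hochberg adjustment over all tested genes at a threshold of 0.05, and the standard error is the absolute log2 fold change over the square root of F. Within-sample ratios used raw counts.

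The members and lists were chosen with earlier results of these data known. Named were all members, up to 4 genes of each list with the largest change past the threshold at 9 Gy day 7, and the nearest gene to each member. Alternatives were 4 other scalings (the median of the tested genes, TMM, total counts, and only housekeeping genes averaging 100 counts or more), no filter, a filter at a mean of 100 counts, counts under 20 set to 20, a prior count of 10, only the groups compared, the replicate number as a block, both treatments of the 2 conflicting day labels, DESeq2 1.42.0, leaving out each sample, and, chosen after seeing the data, 9 Gy day 3 left out of the fit, day 7 ratios, ratios with same-numbered samples averaged and the block with only the groups compared. Correlations of same-numbered samples all exceeded 0.1 between the 2 Gy groups (0.39 to 0.78) and between the 9 Gy groups (0.35 to 0.73) but not between other groups. The source of this pairing is not stated. Samples of different numbers correlated up to 0.62 between the 2 Gy groups, 0.44 between the 9 Gy groups and 0.79 between the sham and 2 Gy day 7 groups. Of the gene symbols, 545 matched RefSeq directly, 14 as older symbols and 2 not. The procedure was tested on simulated data. The values of 1 gene that the rule names are not reported here.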

Additional observations from a re-analysis of the deposited data

How the results depend on the processing

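Of the 15 called changes of ligand genes with 9 Gy EVs against sham or 2 Gy EVs, 405 of 422 values under the alternatives kept their direction and call, 16 kept only the direction and 1 turned, Cd80 at 9 Gy day 3 with counts under 20 set to 20 (0.0075). Leaving out 1 sample at a time kept 223 of these and lost 2, both of Cd40. Many of these fits left out a sample of neither group compared, which hardly moves the fold change. The counts thus overstate how far the calls were put to a test. The 9 Gy day 3 values rest on low depth.

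With total counts, 3 ligand genes instead of 5 were called at 9 Gy day 7 against sham EVs and 3 instead of 5 against 2 Gy EVs, in both comparisons Cd86 and Cd80 lower and Icosl higher. Of all 269 tested genes, 31 were then lower and 143 higher at day 7, and 36 lower and 168 higher against 2 Gy EVs. With counts under 20 set to 20, 2 were called instead of 0 between the 9 Gy days (Cd80 at -1.99, with 9 Gy day 3 at the floor, and Cd274 at 0.48) and 1 instead of 0 in the test of dose by day. The replicate block with only the groups compared called 2 instead of 0 between the 2 Gy days, and the replicate block changed no other call of a ligand gene but Slamf7 at 9 Gy day 3 (-1.29, adjusted p = 0.033). Over all genes, 109 instead of 164 were called at 9 Gy day 7 with a mean of at least 100 counts (fewer genes tested). At 2 Gy day 7 it was 1 instead of 0 without the filter. Between the 2 Gy days 27 instead of 0 were called with the block and only the groups compared, and 0 with the block in a fit of all groups. With counts under 20 set to 20, 99 instead of 0 were called between the 9 Gy days and 62 instead of 0 for dose by day. The conflicting day labels, moved or left out, leave replicate 3 alone at 9 Gy day 3, so no count of calls is given.

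Of the ratios, counts under 20 set to 20 gave -1.31 for Cd86 to Cd80 and -2.10 for Cd274 to Pdcd1lg2, both then past the threshold (adjusted p = 0.030 and 0.017), and 0.69 for Cd274 to Cd86, then not past it. Same-numbered samples of a dose averaged left the ratio differences as they were, none past the threshold (3 values a dose cannot reach an exact permutation p below 0.1). The day 7 samples alone gave 1.17 for Cd274 to Cd86 (adjusted p = 0.40) and a turned sign, 0.43, for Cd274 to Pdcd1lg2. Leaving out 1 sample gave 1.11 to 1.26 for Cd274 to Cd86, -0.99 to -0.40 for Cd274 to Pdcd1lg2 (past the threshold without replicate 2 of 9 Gy day 7), 0.80 to 1.29 for Cd40 to Cd86 (past it without replicate 3 of 2 Gy day 7) and -0.49 to -0.17 for Cd86 to Cd80.

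Among the 7 ligand genes, signs that turned belonged to values that had not passed, apart from the Cd80 value above. Against sham EVs at 2 Gy day 3 these were Cd86 with the median scaling (0.0056) and Cd83 with the median (0.069) and TMM (0.026) scalings, counts under 20 set to 20 (0.0090) and the replicate block (0.00045). At 2 Gy day 7 they were Cd80 with the median (-0.0050), TMM (-0.0050) and total count (-0.071) scalings and the replicate block (-0.00057), and Slamf7 with total counts (-0.022) and the replicate block (-0.046). With total counts Slamf7 was at 0.47 at 9 Gy day 7 and at 0.41 for 9 Gy against 2 Gy, where Icosl was at -0.014 and -0.0041 with the conflicting day labels moved or left out. Between the 9 Gy days Cd83 was at 0.0066 (TMM), 0.092 (total counts), 0.011 (housekeeping genes of at least 100 counts), 0.38 (counts under 20 set to 20), 0.49 and 0.43 (labels moved or left out), Cd86 at 0.0020 (total counts), Icosl at -0.13 (counts under 20 set to 20) and Cd274 at -0.23 and -0.14 (labels moved or left out). Without 1 sample, signs turned within -0.12 to 0.11 for Cd83, -0.24 to 0.057 for Cd86, -0.68 to 0.025 for Cd40 and -0.042 to 0.67 for Icosl at 2 Gy day 3, -0.12 to 0.15 for Cd80, -0.20 to 0.33 for Slamf7 and -0.0077 to 0.22 for Cd83 at 2 Gy day 7, -0.095 to 0.16 for Icosl at 9 Gy against 2 Gy, -0.34 to 0.053 for Cd86 between the 2 Gy days and -0.23 to 0.29 for Cd83 between the 9 Gy days. The causes were not tested.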
